A study of Mus musculus with 6 samples.

Results

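The replication-dependent histone genes are the protein-coding genes of the deposited table whose symbols begin with Hist1h, Hist2h, Hist3h or Hist4h, a choice by name and gene type that used no measured value. They numbered 67 of 23842 genes, made up of 6 H1, 18 H2A, 18 H2B, 12 H3 and 13 H4 genes. Total RNA was sequenced from cultured mouse embryonic fibroblasts, the adherent cells that grow from minced embryos. The design set 3 libraries labelled NGLY1-/-, a loss of the cytosolic enzyme that strips N-linked glycans from misfolded glycoproteins, against 3 wild-type libraries. All 6 samples were of strain C57BL/6, were cultured at high glucose with 10% serum and received no treatment. The labels give neither the age of the embryos, the deleted part of the gene, nor whether the libraries of a group came from separate embryos, lines or dishes, so p-values rest on a spread between samples that may be only technical.

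Replication-dependent histone genes supply the core histones H2A, H2B, H3 and H4, which form the nucleosome, and the linker histone H1, which binds the DNA entering and leaving it. They lie in clusters, are transcribed mainly while DNA is being copied, and give mRNAs without introns that end in a conserved stem-loop and not in a poly(A) tail. The stem-loop is bound by the protein encoded by Slbp, and the transcript is cut behind it by a particle that holds the U7 small nuclear RNA. Because the libraries were made from total RNA, these mRNAs could be counted without a poly(A) tail, and tailed and untailed histone transcripts were counted together.

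The stem-loop was searched in the GENCODE transcripts of the 67 genes as GG, 2 bases of any kind, CTTTT, 1 base of any kind, AG, 2 bases of any kind and CC, on the transcribed strand, within 100 bases after the stop codon. Of the 31 genes with at least 100 annotated bases after the stop codon, 25 held it (80.6%), against 3 of 19081 other protein-coding genes (0.0157%), namely H2afx, H2bfm and Lrrc75b. Counting shorter annotated ends too, 43 genes held it, 21 to 58 bases after the stop codon, in 6 different spellings. The sequences below, each 26 bases with the 16 bases of the stem-loop in capitals, belong to members that the results turn on and show how the stem of H4 genes differs from that of the other classes.
Hist1h1c: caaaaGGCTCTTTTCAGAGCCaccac
Hist1h2ac: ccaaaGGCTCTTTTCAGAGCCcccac
Hist1h2bg: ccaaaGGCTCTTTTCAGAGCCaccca
Hist1h3c: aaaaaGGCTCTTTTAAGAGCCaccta
Hist4h4: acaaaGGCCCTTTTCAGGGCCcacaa
Hist1h4i: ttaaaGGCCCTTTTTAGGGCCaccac
Hist1h4b: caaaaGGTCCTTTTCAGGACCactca
In GRCm38 these capital bases lie at chr13:23739512-23739527 (+) for Hist1h1c, chr13:23683477-23683492 (-) for Hist1h2ac and chr13:23571843-23571858 (+) for Hist1h2bg. Those of Hist1h3c lie at chr13:23745047-23745062 (-), and those of Hist4h4 at chr6:136803998-136804013 (-). Hist1h4i has them at chr13:22040966-22040981 (-) and Hist1h4b at chr13:23757366-23757381 (+). The stem with GGCTC and GAGCC was found in H1, H2A, H2B and H3 genes, and stems with GGCCC or GGTCC in H4 genes. The spelling of Hist1h4i was shared with Hist2h4, and that of Hist1h4b with Hist1h4j. A match describes the letters and does not show that a site is used.

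Ngly1 itself gave 618, 420 and 457 counts in NGLY1-/- libraries, against 668, 632 and 307 in wild-type libraries (adjusted p = 0.99). A partial deletion need not lower a count taken over all of a gene, so this value does not check the genotype, and directions rest on the labels. Depth was 33007239 to 37841558 counts in NGLY1-/- libraries, against 27323577 to 37790710 in wild-type libraries. Ribosomal RNA genes took 3.46% to 8% of the counts in NGLY1-/- libraries and 4.35% to 5.88% in wild-type libraries. The 11 fibroblast markers summed to 10614 to 11837 CPM (counts scaled to library size) in NGLY1-/- libraries and 8215 to 9215 CPM in wild-type libraries. Fn1, the fibronectin gene, carried the higher sum, with means of 7151 CPM in NGLY1-/- and 2092 CPM in wild-type libraries, while Vim (677 and 1741 CPM), S100a4 (133 and 1008 CPM) and Col1a2 (1639 and 2149 CPM) had lower means in NGLY1-/- libraries. The matrix gene Lum had at most 1 count in a library. Epithelial markers, mostly Krt19, summed to 22.1 to 31.3 CPM in NGLY1-/- libraries and 54.2 to 108 CPM in wild-type libraries. Endothelial and pluripotency markers stayed below 3 CPM in sum in every library, blood and macrophage markers summed to 2.48 to 2.65 CPM in NGLY1-/- and 1.98 to 3.71 CPM in wild-type libraries (Ptprc had 0 counts in NGLY1-/- libraries and at most 3 in a wild-type library), and neural markers summed to 280 to 377 CPM in NGLY1-/- libraries and 230 to 365 CPM in wild-type libraries. The part of these differences in the histone results was not tested.

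Histone mRNA was more abundant in the NGLY1-/- libraries. The 67 genes together took 1.14% ± 0.128 of all counts there and 0.924% ± 0.0471 in wild-type libraries (SD, n = 3 each). After TMM scaling (by a trimmed mean of log ratios between libraries, which assumes that most genes do not change), the sum was 12543, 12431 and 10651 CPM in NGLY1-/- replicates 1 to 3, against 8608, 9259 and 8745 CPM in wild-type replicates 1 to 3. Every NGLY1-/- library was above every wild-type library, and the ratio of the means was 1.34. In bulk RNA, more cells that express these genes and more of their RNA per cell cannot be told apart.

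Of the 67 genes, 65 passed the filter on low counts. In edgeR's quasi-likelihood test with Benjamini-Hochberg adjustment over all 15039 genes tested, 36 rose in the NGLY1-/- libraries (55.4%, against 30.7% of all genes tested), 4 fell (6.15%, against 30.2%) and 25 did not pass a false discovery rate of 0.05. With 60.9% of all genes called in either direction, a single call is not particular to a histone gene. The median log2 fold change was 0.40 over the 65 genes and -0.04 over all genes tested. The 4 that fell were Hist2h2be, Hist1h1b, Hist4h4 and Hist1h4b. The changes were small: 2 of the 40 called genes changed at least 2-fold, against 4286 of the 9160 genes called in the whole table. The libraries of the groups did not overlap and were higher in the NGLY1-/- group for 34 genes, and lower for 6 (33.8% and 33.5% of all genes tested). The genes that failed the filter were Hist1h1t, a testis H1 gene with 5, 7 and 7 counts in the NGLY1-/- and 1, 6 and 1 in the wild-type libraries, and Hist1h2aa, also known from testis, with 3, 2 and 0 counts in NGLY1-/- libraries and 0, 1 and 0 in wild-type libraries.

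**Figure D1:**
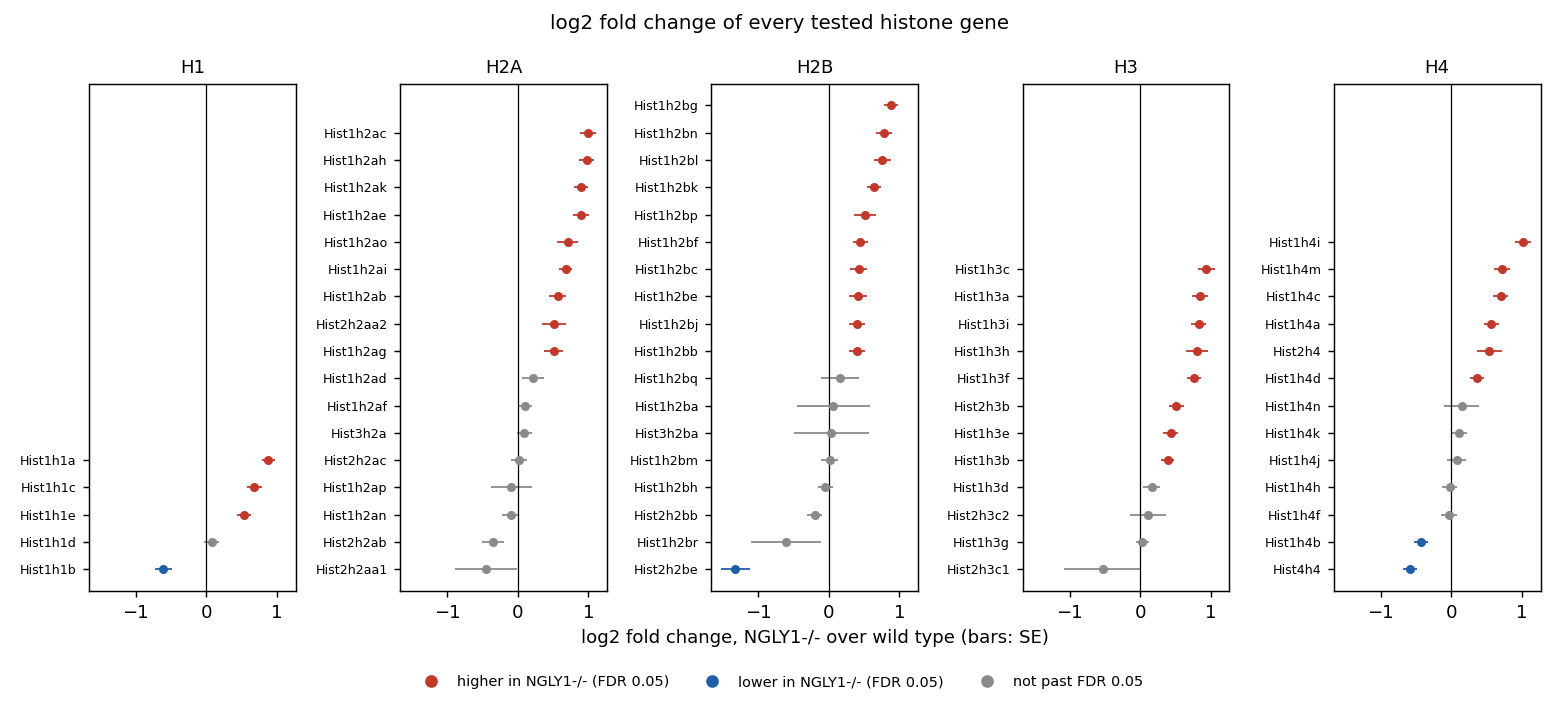
log2 fold change of each of the 65 tested histone genes, NGLY1-/- over wild type, by class, with bars for the standard error of the fit and colours for the call at a false discovery rate of 0.05. Each class holds genes near 0 beside genes near 1, and Hist2h2be, at -1.33, lies farthest from 0.

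The classes differed in their summed level by unequal ratios, for which no test was made. H3 genes summed to 2178 ± 209 CPM in NGLY1-/- libraries and 1411 ± 44.2 CPM in wild-type libraries, a ratio of 1.54. H2A genes summed to 1537 ± 166 CPM in NGLY1-/- and 1028 ± 22.8 CPM in wild-type libraries, a ratio of 1.5. For H1 the sums were 2639 ± 168 CPM in NGLY1-/- and 1925 ± 95.4 CPM in wild-type libraries, a ratio of 1.37. H2B and H4 had the lower ratios. H2B genes summed to 2968 ± 371 CPM in NGLY1-/- and 2403 ± 108 CPM in wild-type libraries, a ratio of 1.23, and H4 genes to 2554 ± 189 CPM in NGLY1-/- and 2104 ± 139 CPM in wild-type libraries, a ratio of 1.21 (SD, n = 3 each). The H2B ratio depends in part on 1 gene, Hist2h2bb, at 584 CPM in NGLY1-/- and 672 CPM in wild-type libraries. That gene took 19.7% ± 0.566 of H2B counts in NGLY1-/- and 27.9% ± 0.387 in wild-type libraries. As shares of all histone counts, H3 took 18.3% ± 0.115 in NGLY1-/- and 15.9% ± 0.577 in wild-type libraries, and H4 took 21.5% ± 0.723 in NGLY1-/- and 23.7% ± 0.656 in wild-type libraries.

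**Figure D2:**
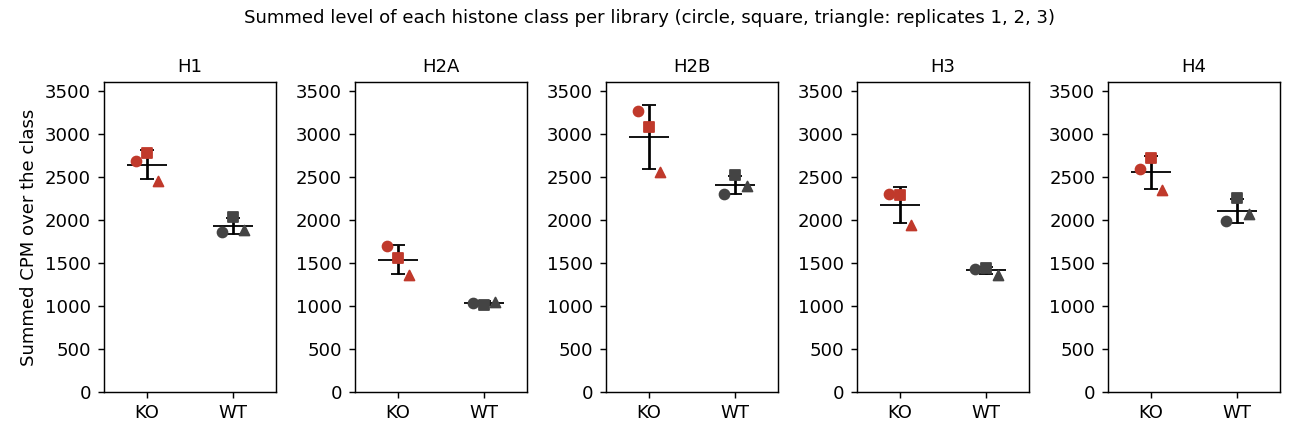
Summed CPM of each histone class in each library (circle, square and triangle for replicates 1, 2 and 3; KO is NGLY1-/-, WT is wild type; lines are means and bars SD). In each of the 5 classes the 3 NGLY1-/- libraries lie above the 3 wild-type libraries, and NGLY1-/- replicate 3 is the lowest of its group.

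Of the 5 tested H1 genes, 3 rose (60%, against 30.7% of all genes tested), 1 fell (20%, against 30.2%) and 1 did not pass. The median log2 fold change was 0.535. Hist1h1a, which encodes a linker histone of proliferating cells, had 722, 713 and 649 CPM in the NGLY1-/- libraries, against 365, 407 and 362 CPM in wild-type libraries. The groups lay far apart, with a log2 fold change of 0.88 (SE 0.0973, adjusted p = 3.62e-05). Hist1h1c, a widely expressed linker histone gene, had 723, 733 and 625 CPM in NGLY1-/- libraries and 446, 464 and 388 CPM in wild-type libraries, a log2 fold change of 0.68 (adjusted p = 0.000401). Hist1h1e, another widely expressed member, was at 747 ± 41.8 CPM in NGLY1-/- and 515 ± 32.8 CPM in wild-type libraries (SD, n = 3 each), a log2 fold change of 0.53 (adjusted p = 0.000913). Hist1h1d did not pass, with 293 ± 34.3 CPM in NGLY1-/- and 278 ± 10.5 CPM in wild-type libraries (SD, n = 3 each) and overlapping groups (log2 fold change 0.08, adjusted p = 0.554).

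Hist1h1b went the other way from these H1 genes. This linker histone gene (gene ID 56702, chr13:21779832-21780625 in GRCm38) had 177, 230 and 223 CPM in the NGLY1-/- libraries and 298, 341 and 323 CPM in the wild-type libraries. The groups did not overlap, and the log2 fold change was -0.61 (SE 0.117, adjusted p = 0.00124). Its share of all H1 counts was 8% ± 1.27 in NGLY1-/- and 16.7% ± 0.535 in wild-type libraries, while that of Hist1h1a was 26.3% ± 0.608 in NGLY1-/- and 19.6% ± 0.392 in wild-type libraries. No 50-base stretch of the coding sequence of Hist1h1a or Hist1h1b recurs in another annotated gene. H1 proteins also differ from one another, with 6 distinct proteins encoded by the 6 genes, whereas the 13 H4 genes encode 1.

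Among the 17 tested H2A genes 9 rose (52.9%, against 30.7% of all genes tested) and 0 fell (against 30.2%) at an adjusted p of 0.05. The median log2 fold change was 0.51. The count of H2A genes that fell was also 0 at an unadjusted p of 0.05, in the DESeq2 test and in limma-voom, and Hist2h2ab fell under scaling by library totals. Hist1h2ac (gene ID 319164, chr13:23683473-23683959) had 230, 203 and 177 CPM in the NGLY1-/- libraries, against 108, 96.0 and 102 CPM in the wild-type libraries. All 3 NGLY1-/- values were well above the wild-type values, with a log2 fold change of 0.998 (SE 0.112, adjusted p = 3.97e-05). Hist1h2ah followed with 0.98 (SE 0.105, adjusted p = 2.96e-05), at 92.9 ± 10.2 CPM in NGLY1-/- and 47.1 ± 2.65 CPM in wild-type libraries. Hist1h2ak, the H2A gene with the most counts, was at 381 ± 29.3 CPM in NGLY1-/- and 205 ± 2.88 CPM in wild-type libraries (SD, n = 3 each), a log2 fold change of 0.90 (adjusted p = 2.44e-05). Hist1h2ab, also among the H2A genes with the most counts, rose with a log2 fold change of 0.57 (adjusted p = 0.00188). Hist2h2ac, of similar level, did not pass: 198, 181 and 158 CPM in NGLY1-/- libraries overlapped with 162, 171 and 197 CPM in wild-type libraries (log2 fold change 0.02, adjusted p = 0.894).

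Of the 18 H2B genes 10 rose (55.6%, against 30.7% of all genes tested), 1 fell (5.56%, against 30.2%) and 7 did not pass. The median log2 fold change was 0.40. Hist1h2bg (gene ID 319181, chr13:23571400-23571863) had 305, 260 and 240 CPM in the NGLY1-/- libraries, against 143, 144 and 150 CPM in the wild-type libraries. The wild-type values were close together and all below the NGLY1-/- ones, with a log2 fold change of 0.88 (SE 0.106, adjusted p = 6.30e-05). Hist1h2bn rose by 0.78 on the log2 scale (adjusted p = 0.000183) and Hist1h2bk by 0.64 (adjusted p = 0.000329). Hist1h2bb, with more counts than any of these, rose by 0.40 on the log2 scale (adjusted p = 0.0136), a call that was lost without NGLY1-/- replicate 1 and under scaling by library totals (adjusted p of at most 0.0606).

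The H2B gene Hist2h2be (gene ID 319190, chr3:96221072-96223738) gave the largest fold change of any tested histone gene, and at a low level. It gave 77, 98 and 81 counts in NGLY1-/- libraries and 258, 268 and 155 in wild-type libraries, or 2.27, 2.99 and 2.28 CPM in NGLY1-/- and 6.34, 6.88 and 5.67 CPM in wild-type libraries. The groups did not overlap, and the gene was 2.51-fold lower in the NGLY1-/- libraries (log2 fold change -1.33, SE 0.203, adjusted p = 0.000299). Its coding sequence shares no 50-base stretch with another annotated gene. Hist2h2be has 2192 annotated bases after the stop codon, and the first 100 held no match to the stem-loop. The other H2B gene of its cluster, Hist2h2bb, had the highest level per length of all tested histone genes averaged over the groups, 1544 CPM per kb of coding sequence in NGLY1-/- and 1777 in wild-type libraries. It had 623, 617 and 511 CPM in NGLY1-/- libraries and 638, 715 and 663 CPM in wild-type libraries; the groups did not overlap, but the difference did not pass (log2 fold change -0.20, adjusted p = 0.129). The H2B gene Hist3h2ba had under 1 CPM, with 9, 17 and 7 counts in NGLY1-/- and 18, 7 and 9 counts in wild-type libraries.

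Of the 12 H3 genes 8 rose (66.7%, against 30.7% of all genes tested) and 0 fell (against 30.2%), with a median log2 fold change of 0.47. Also 0 fell at an unadjusted p of 0.05, in the DESeq2 test or in limma-voom. Hist1h3c (gene ID 319148, chr13:23745042-23745521) had 456, 409 and 341 CPM in the NGLY1-/- libraries, against 225, 215 and 190 CPM in the wild-type libraries. It was higher in all 3 NGLY1-/- libraries, with a log2 fold change of 0.94 (SE 0.123, adjusted p = 0.00011). Hist1h3f, the H3 gene with the most counts, was at 474 ± 50.6 CPM in NGLY1-/- and 280 ± 4.07 CPM in wild-type libraries (SD, n = 3 each), a log2 fold change of 0.76 (adjusted p = 0.000129). Hist1h3a rose by 0.85 on the log2 scale (adjusted p = 0.000115) and Hist1h3e by 0.43 (adjusted p = 0.00602). On chromosome 3, Hist2h3b had 134, 144 and 116 CPM in NGLY1-/- and 89.0, 98.8 and 88.1 CPM in wild-type libraries, and rose by 0.51 (adjusted p = 0.00178).

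H4 genes, although they encode the same protein, moved in both directions. Of 13, 6 rose (46.2%, against 30.7% of all genes tested), 2 fell (15.4%, against 30.2%) and 5 did not pass. The median log2 fold change was 0.15. Hist1h4i (gene ID 319158, chr13:22040960-22041362) had the largest rise of all tested histone genes, with 55.8, 57.0 and 44.9 CPM in NGLY1-/- libraries, against 24.7, 27.4 and 26.1 CPM in wild-type libraries. The groups were well apart (2.02-fold higher, log2 fold change 1.01, SE 0.117, adjusted p = 4.89e-05). The H4 genes with the most counts, Hist1h4d and Hist1h4c, rose by 0.37 and 0.70 on the log2 scale (adjusted p = 0.00863 and 0.000263), and Hist1h4m rose by 0.72 (adjusted p = 0.000411). The coding sequence of Hist1h4m is 100% identical to that of Hist1h4n, which did not pass (0.15, adjusted p = 0.627), so reads of these genes could be exchanged. Hist1h4h and Hist1h4k, next in count, did not pass, with log2 fold changes of -0.02 and 0.11; both signs changed in some of the alternatives tried.

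Both H4 genes that fell had groups that did not overlap. Hist4h4 (gene ID 320332, chr6:136803993-136804431), which stands alone on its chromosome, had 70.2, 72.8 and 63.9 CPM in the NGLY1-/- libraries and 94.1, 109 and 108 CPM in the wild-type libraries. Its log2 fold change was -0.59 (SE 0.0983, adjusted p = 0.000508). Hist1h4b (gene ID 326620, chr13:23756937-23757386) had 102, 111 and 91.2 CPM in NGLY1-/- libraries and 124, 144 and 142 CPM in wild-type libraries, a log2 fold change of -0.43 (SE 0.105, adjusted p = 0.00507). It lies in the Hist1 cluster between genes that rose, among them Hist1h3b on one side and Hist1h4a on the other. Hist2h4 had 147, 203 and 233 CPM in NGLY1-/- and 107, 146 and 148 CPM in wild-type libraries, with overlapping groups and a log2 fold change of 0.54 (adjusted p = 0.0279). That call was lost without NGLY1-/- replicate 2 or 3 or wild-type replicate 1 or 3 (adjusted p of at most 0.0912).

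By cluster, 33 of the 36 genes that rose lay on chromosome 13, which held 52 of the 65 tested genes. The Hist1 cluster there held 54 of the genes in a first block of 23 genes over 328 kb (21715711 to 22043658) and a second block of 31 genes over 404 kb (23531044 to 23934913), with no histone gene of the rule between them. Of its 52 tested genes 33 rose (63.5%) and 2 fell (3.85%), against 30.7% and 30.2% of all genes tested. Their median log2 fold change was 0.44, and 44 had a positive fold change. The first block had 14 of 23 genes higher and 1 lower, and the second 19 of 29 higher and 1 lower. Summed, the Hist1 genes had 10599 ± 990 CPM in NGLY1-/- and 7577 ± 290 CPM in wild-type libraries (SD, n = 3 each), a ratio of 1.4.

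Other genes of chromosome 13 were also more often higher than lower. Of 573 tested genes of this chromosome that are not members, 51% rose and 14.8% fell, and their median log2 fold change was 0.42. Against that median, 27 of the 52 Hist1 genes lay above and 25 below. Of the 7 other tested protein-coding genes between the first and last Hist1 gene, 3 rose (the iron-sensing gene Hfe, the transcription activator gene Abt1 and the zinc finger gene Zfp184) and 1 fell (Btn1a1, a milk fat globule gene). Including 1 Mb on each side, 13 of 23 rose and 2 fell, with a median of 0.63. The part of the chromosome's shift in the histone values was not tested.

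**Figure D3:**
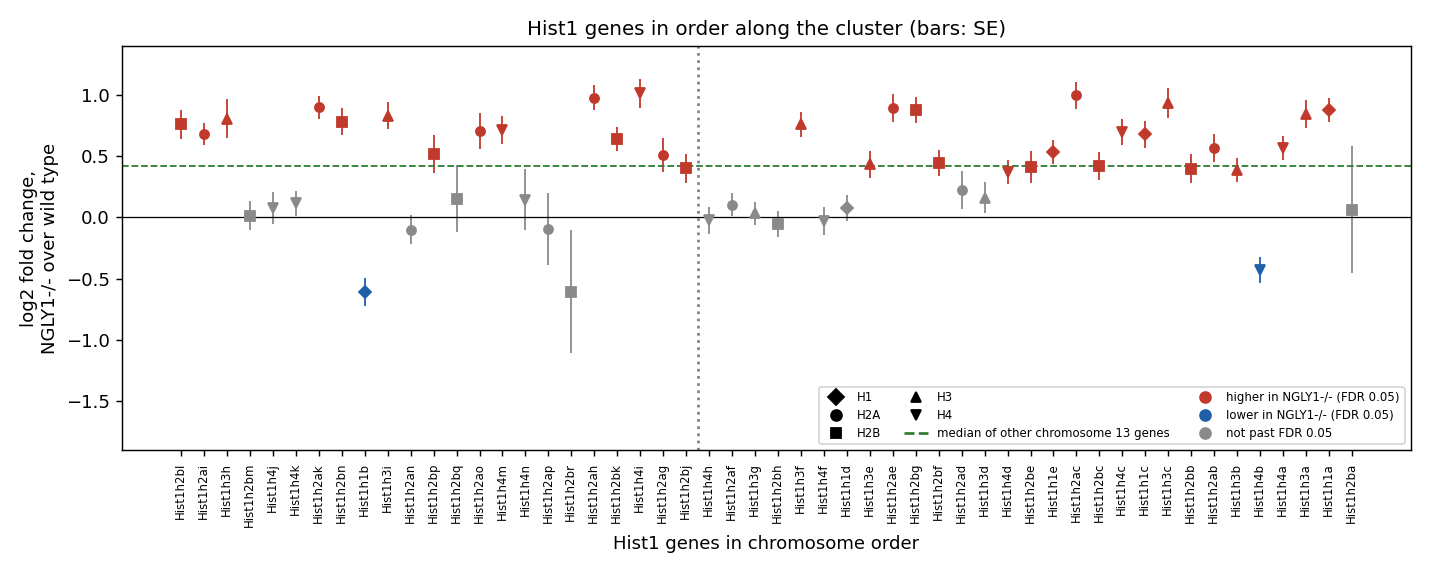
log2 fold change of the 52 tested Hist1 genes, NGLY1-/- over wild type, in their order along chromosome 13, with bars for the standard error; the dotted line parts the first from the second block and the dashed line is the median of the other tested genes of the chromosome, 0.42. Genes that rose stand beside genes near 0 in both blocks, and Hist1h1b and Hist1h4b lie below 0.

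The Hist2 cluster on chromosome 3, with 10 genes within 50.3 kb (96219885 to 96270192), was split. Of its genes 3 rose (Hist2h3b, Hist2h4 and Hist2h2aa2; 30%, against 30.7% of all genes tested) and 1 fell (Hist2h2be; 10%, against 30.2%). The other 6 did not pass, and the median log2 fold change was -0.09. The coding sequence of Hist2h2aa2 is 100% identical to that of Hist2h2aa1, and that of Hist2h3b is 99.75% identical to that of Hist2h3c2, so these calls could hold exchanged reads. Its summed level was 1128 ± 66.0 CPM in NGLY1-/- and 1116 ± 72.4 CPM in wild-type libraries (SD, n = 3 each), a ratio of 1.01. As a share of all histone counts it was 9.52% ± 0.415 in NGLY1-/- and 12.6% ± 0.600 in wild-type libraries, while the Hist1 share was 89.2% ± 0.451 in NGLY1-/- and 85.4% ± 0.700 in wild-type libraries. Of the other genes of chromosome 3, 24.4% of 716 rose and 34.6% fell, with a median of -0.17, and 5 Hist2 genes lay above that median and 5 below. The remaining Hist2 genes were Hist2h2ab, with groups that did not overlap but no call (-0.34 on the log2 scale, adjusted p = 0.0825), and Hist2h2aa1, Hist2h3c1 and Hist2h3c2, whose sequences are shared with near-identical genes. The call of Hist2h2aa2 (log2 fold change 0.51, adjusted p = 0.0267) was lost without NGLY1-/- replicate 1 or 2, without wild-type replicate 1 or 2, and under scaling by library totals (adjusted p of at most 0.106).

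The 2 remaining chromosomes held 3 members. On chromosome 11, Hist3h2a had 83.2, 82.6 and 70.5 CPM in NGLY1-/- and 68.0, 74.3 and 79.3 CPM in wild-type libraries, with overlapping groups and a log2 fold change of 0.09 (adjusted p = 0.451). The other genes of chromosome 11 rose in 27.9% and fell in 27.8% of 1178 cases, with a median of -0.02. On chromosome 6, where 17% of 723 other genes rose and 46.6% fell, with a median of -0.41, Hist4h4 fell as given above.

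Many H2A and H2B genes stand head to head and share the stretch between their start sites. There were 12 such pairs, 164 to 281 bases apart from start to start, and both genes were tested in 11. In 6 pairs both genes rose, in 1 only the H2A gene and in 2 only the H2B gene. The genes passed in opposite directions in 0 pairs, which had little room to occur, since 0 tested H2A genes and 1 H2B gene fell. Of the tested Hist1 genes, 66.7% of H2A and 66.7% of H2B genes rose. Whether paired genes moved together more than unpaired ones was not tested. Hist1h2ae and Hist1h2bg, with 180 bases between their starts, had log2 fold changes of 0.89 (SE 0.115) and 0.88 (SE 0.106). Hist2h2ac and Hist2h2be, with 192 bases between theirs, had 0.02 (SE 0.114) and -1.33 (SE 0.203). The difference within a pair was not tested.

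**Figure D4:**
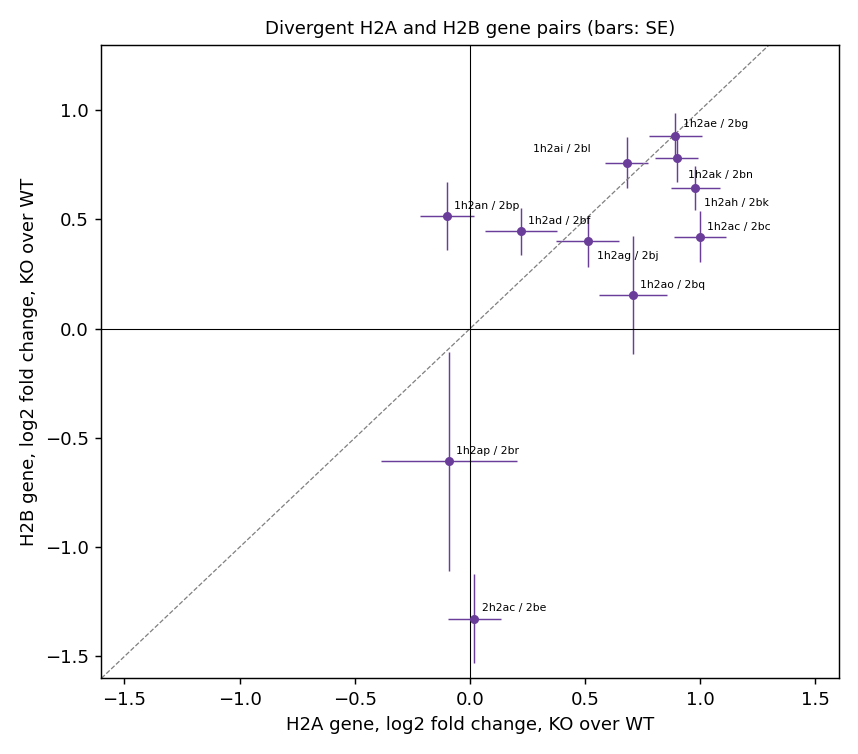
log2 fold change, NGLY1-/- (KO) over wild type (WT), of the H2A gene (x axis) and the H2B gene (y axis) of the 11 divergent pairs in which both were tested, with bars for the standard error and a dashed line of equality. The 6 pairs in which both rose lie at the upper right, and the pair of Hist2h2ac and Hist2h2be lies lowest.

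The promoters of these pairs are shown because in the first pair both genes rose, and in the second 1 fell and the other did not pass. Each is the RefSeq window of GRCm38.p6 from 250 bases before to 50 bases after the start of the named gene, and holds the start sites of both genes of its pair. Capitals mark TATAAA (the TATA box), CCAAT (the binding motif of NF-Y) and ATTTGCAT (the octamer bound by POU factors) on either strand; none of the 3 holds another.
Hist1h2bg: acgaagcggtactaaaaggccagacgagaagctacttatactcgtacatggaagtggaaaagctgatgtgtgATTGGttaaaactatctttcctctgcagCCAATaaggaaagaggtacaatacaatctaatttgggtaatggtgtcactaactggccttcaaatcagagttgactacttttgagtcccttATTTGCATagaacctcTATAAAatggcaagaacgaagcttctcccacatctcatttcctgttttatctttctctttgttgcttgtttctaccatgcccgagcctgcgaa
Hist2h2ac: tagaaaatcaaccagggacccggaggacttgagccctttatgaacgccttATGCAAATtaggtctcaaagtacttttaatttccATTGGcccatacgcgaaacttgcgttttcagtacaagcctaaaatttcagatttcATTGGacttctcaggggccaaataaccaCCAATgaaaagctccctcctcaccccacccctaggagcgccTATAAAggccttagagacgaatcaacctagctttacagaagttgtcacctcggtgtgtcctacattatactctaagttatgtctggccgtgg
The first lies at chr13:23571150-23571449 (+) and the second at chr3:96220831-96221130 (-). RefSeq promoters were found for 62 of the 67 genes. CCAAT was present in 85.5% of them, against 37.8% of 26963 other promoters, TATAAA in 56.5% against 14.1%, and ATTTGCAT in 21% against 1.71%. The octamer was found in 7 of 18 H2A and 6 of 16 H2B promoters and in 0 of the H1, H3 and H4 promoters. CCAAT was found in every H1, H2A, H2B and H3 promoter and in 3 of 12 H4 promoters. Among tested genes with CCAAT 30 of 51 rose and 1 fell, and among those without it, all of them H4 genes, 2 of 9 rose and 2 fell, so this split cannot be told apart from class. With TATAAA 20 of 34 rose and 1 fell, and without it 12 of 26 rose and 2 fell. With ATTTGCAT 7 of 12 rose and 0 fell, and without it 25 of 48 rose and 3 fell. Of all tested histone genes 55.4% rose and 6.15% fell, against 30.7% and 30.2% of all genes tested. Whether any of these motifs goes with the calls was not tested.

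Near-identical coding sequences limit what a count per gene can say in this family. The share of 50-base windows of the coding sequence found in no other annotated gene was 0% for 13 of the tested genes, above 0 and below 25% for 20, and at least 25% for 32. No source used here names the counting program, so how reads that match several genes were treated is not known. Of the 32 genes with at least 25% unique windows, 15 rose (46.9%) and 4 fell (12.5%), with a median log2 fold change of 0.10. Among the 13 tested genes with at least 50%, 5 rose (38.5%) and 3 fell (23.1%), with a median of 0.06. Of all genes tested, 30.7% rose and 30.2% fell. Of the 20 histone genes above 0 and below 25%, 17 rose and 0 fell. Among these 17 were Hist1h2ac (18.2% unique windows), Hist1h2ah (3.58%), Hist1h2bg (14%), Hist1h2bn (13.7%), Hist1h2bk (3.95%) and Hist1h3c (24%), so their rises could hold reads of sibling genes. All 4 histone genes that fell were among the 32 with at least 25%, Hist1h4b narrowly so with 26.9% unique windows. The part of shared reads in these values was not tested. Of the 13 with no unique window 4 rose (30.8%) and 0 fell. Their median standard error was 0.246 at a median of 354 counts, against 0.111 at 6022 counts for the 32. For the 20 above 0 and below 25% it was 0.109 at 4404 counts. The parts of shared sequence and of count level in these standard errors were not tested.

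Wild-type replicate 3 departed from its group in some of these shared sequences. Its CPM divided by the mean of wild-type replicates 1 and 2 had a median of 0.997 over the 65 genes but exceeded 1.5 for 8 of them, 7 of which had no unique window. Hist2h3c1 had 46, 63 and 77 counts in NGLY1-/- and 51, 54 and 147 in wild-type libraries, a ratio of 4.07 for wild-type replicate 3. Hist2h2aa1 had 79, 105 and 99 counts in NGLY1-/- and 113, 73 and 187 in wild-type libraries. Hist2h3c2 had 477, 505 and 533 counts in NGLY1-/- and 465, 367 and 560 in wild-type libraries. None of these 3 genes passed the test with all 6 libraries (adjusted p = 0.423, 0.393 and 0.718). Without wild-type replicate 3, 37 histone genes rose and 4 fell, and without both libraries numbered 3, 40 rose and 4 fell.

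Of 32 genes that process histone mRNA or carry histone proteins, all tested, 15 rose (46.9%) and 8 fell (25%), against 30.7% and 30.2% of all tested genes, with a median log2 fold change of 0.13. Slbp, whose product binds the stem-loop, fell, with 101, 90.8 and 88.7 CPM in NGLY1-/- and 134, 140 and 121 CPM in wild-type libraries. Its groups did not overlap (log2 fold change -0.49, SE 0.0975, adjusted p = 0.00149), and the direction was opposite to that of most histone mRNAs. Of the parts of the U7 particle, Lsm11 rose, at 25.6 ± 1.22 CPM in NGLY1-/- and 16.3 ± 2.07 CPM in wild-type libraries (SD, n = 3 each; log2 fold change 0.65, adjusted p = 0.00118), and Lsm10 fell by 0.37 (adjusted p = 0.0456). The call of Lsm10 was lost with no low-count filter and when any library but wild-type replicate 3 was left out (adjusted p of at most 0.164). Casp8ap2, which encodes the cleavage cofactor FLASH, rose by 0.38 (adjusted p = 0.00586), and Eri1, a nuclease that trims histone mRNA ends, by 0.37 (adjusted p = 0.00655).

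Npat, the coactivator of histone transcription, was at 107 ± 6.09 CPM in NGLY1-/- and 126 ± 4.65 CPM in wild-type libraries, a log2 fold change of -0.24 (adjusted p = 0.038). That call was lost in 7 of 16 alternatives, among them the removal of NGLY1-/- replicate 2 or 3 or wild-type replicate 1 or 2 (adjusted p of at most 0.176). Hinfp, a factor of H4 promoters, did not pass (-0.19, adjusted p = 0.0967). Among the histone chaperones, Asf1b fell by 0.47 (adjusted p = 0.0055), while its paralog Asf1a did not pass (0.20, adjusted p = 0.122). Nasp, a chaperone of H3 and H4, rose by 0.31 (adjusted p = 0.0291), a call lost without NGLY1-/- replicate 1 or 3, without wild-type replicate 1 or 2 and under scaling by library totals (adjusted p of at most 0.106). Chaf1a and Chaf1b, subunits of the chromatin assembly factor that follows the replication fork, had log2 fold changes of -0.07 and 0.07 and did not pass, and both signs changed in some of the alternatives.

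Replication-independent histone genes encode replacement variants, mostly from polyadenylated mRNAs. Of 11 tested of 14 listed, 3 rose (27.3%) and 5 fell (45.5%), against 30.7% and 30.2% of all tested genes, with a median of -0.21. H3f3b, a gene of the replacement histone H3.3, rose, with 609, 619 and 615 CPM in NGLY1-/- and 359, 403 and 424 CPM in wild-type libraries (log2 fold change 0.64, adjusted p = 0.000278). Its paralog H3f3a, which encodes the same protein, did not pass (-0.01, adjusted p = 0.931; its sign changed in some of the alternatives). Cenpa, the centromeric H3 variant gene, had 29.8, 32.7 and 29.9 CPM in NGLY1-/- libraries and 84.5, 89.6 and 87.0 CPM in wild-type libraries, far apart, with a log2 fold change of -1.50 (adjusted p = 6.54e-07). The linker variant gene H1f0 fell by 0.60 (adjusted p = 0.00497) and H1fx did not pass (-0.13, adjusted p = 0.709). Among H2A variant genes, H2afy2, a macroH2A gene, fell by 1.04 (adjusted p = 0.00112), with 2.98, 4.57 and 3.69 CPM in NGLY1-/- and 8.01, 7.99 and 7.13 CPM in wild-type libraries. H2afv fell by 0.69 (adjusted p = 0.00879) and H2afz by 0.29 (adjusted p = 0.0319), H2afj and H2afy rose by 0.48 and 0.34 (adjusted p = 0.00726 and 0.00804), and H2afx, which can carry the stem-loop, did not pass (-0.21, adjusted p = 0.104). The call of H2afz was lost without NGLY1-/- replicate 2 or 3, without wild-type replicate 1 or 2, and without both libraries numbered 3 (adjusted p of at most 0.161).

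**Figure D5:**
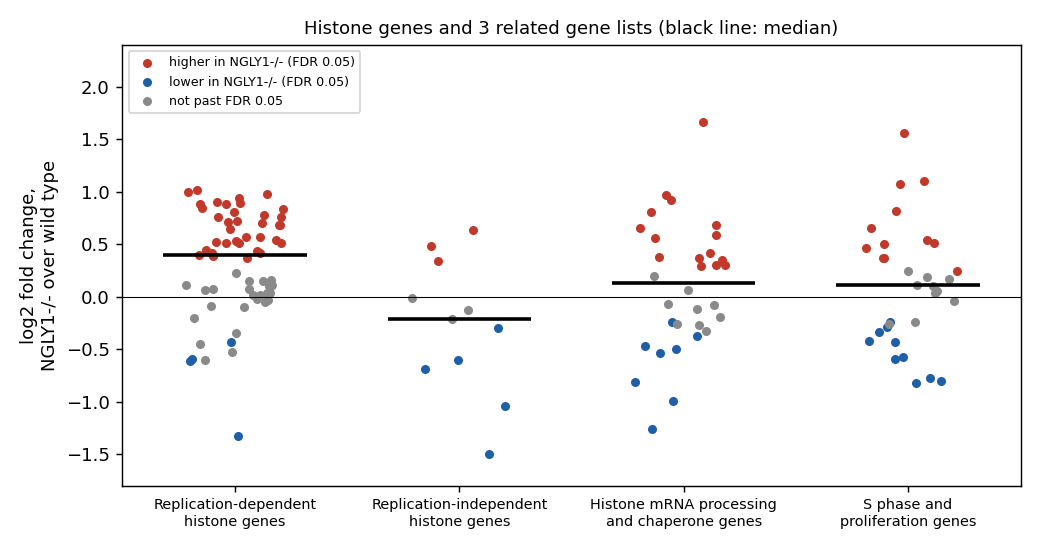
log2 fold change, NGLY1-/- over wild type, of the tested histone genes and of the genes of the 3 related lists, one point a gene, coloured by call, with a black line at each median. The medians are 0.40 for the histone genes, 0.13 for processing and chaperone genes, -0.21 for replication-independent histone genes and 0.11 for S phase and proliferation genes.

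Genes of S phase and proliferation, given here because replication-dependent histone mRNA is made in S phase, moved at about the rate of the whole table: of 32 tested, 12 rose (37.5%) and 10 fell (31.2%), against 30.7% and 30.2% of all tested genes, with a median of 0.11. Pcna, the sliding clamp of DNA replication, had 550, 511 and 484 CPM in NGLY1-/- and 306, 320 and 253 CPM in wild-type libraries, with groups well apart (log2 fold change 0.82, adjusted p = 0.000147). Ccne2, a cyclin of S phase entry, rose by 0.66 (adjusted p = 0.000216), while Ccne1 did not pass (-0.24, adjusted p = 0.195). Ccna2, the cyclin of S and G2 phase, fell by 0.80 (adjusted p = 8.59e-05), the helicase subunit gene Mcm2 by 0.43 (adjusted p = 0.00231) and Rrm2, of deoxynucleotide synthesis, by 0.42 (adjusted p = 0.0234). Mki67, a gene of cycling cells, had 623, 588 and 583 CPM in NGLY1-/- libraries and 999, 1047 and 1113 CPM in wild-type libraries, and fell (log2 fold change -0.82, adjusted p = 5.77e-05). E2f1, which activates S phase genes, rose by 0.36 (adjusted p = 0.044), a call lost in 9 of 16 alternatives, among them the removal of NGLY1-/- replicate 2 or 3 or wild-type replicate 2 or 3 (adjusted p of at most 0.204), and that of Rrm2 was lost without NGLY1-/- replicate 1 or 2 (adjusted p of at most 0.109). The part of a difference in cycling cells in the histone results was not tested.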

How the data were processed

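Total RNA of the 6 samples was extracted with Trizol for stranded total RNA libraries, per the labels' protocols. The deposited table holds the authors' raw whole-number counts per gene, listed by NCBI Gene ID, per the file headers. The submitters' processing notes name STAR 2.5.1b and mm10. A counting program and strand setting were not found in the labels or headers, so overlapping genes and near-identical copies could exchange reads. Depth was 27323577 to 37841558 counts per library.

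Counts were tested in R 4.3.3 with edgeR 4.0.16 (filterByExpr, TMM scaling, robust quasi-likelihood fit with genotype as its only term, two-sided, Benjamini-Hochberg adjustment over all 15039 genes tested, threshold 0.05). The common dispersion of 0.0239 equals a 15.5% biological coefficient of variation. CPM use TMM-scaled library sizes. Gene coordinates came from RefSeq, all 67 members being matched by gene ID, and transcripts from GENCODE vM21, both on GRCm38, the assembly that mm10 denotes. Members and lists were chosen with earlier results of these data known, and counts over them carry no test. Genes were named by a rule: all tested H1 genes, the 4 members with the most counts in each other class, the 2 with the largest calls each way, all members outside chromosome 13, and set genes of each list. Members named beyond it, such as those of divergent pairs and of Hist1 span neighbours, were chosen after their values were seen. Alternatives were DESeq2 1.42.0 size factors and test, library totals, no filter, 1 CPM in 3 libraries, limma-voom (limma 3.58.1), a replicate block, each library left out, both libraries numbered 3 left out, structural RNA left out, and TMM scaling that skips chromosomes 2, 6, 9, 13, 16, 18, X and Y, called the shifted chromosomes because their genes leaned one way as groups in earlier results. The fit was tested on simulated data with known changes in 200 genes. That is far fewer than the 9160 genes called here, so the simulation does not show how scaling and fit behave in such a table.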

Additional observations from a re-analysis of the deposited data

How the results depend on the processing

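Of the 40 histone calls, 34 (30 higher and 4 lower) held in all 16 alternatives, and no call turned its direction in any of them. The histone counts were 36 higher and 4 lower with DESeq2 size factors, the DESeq2 test, limma-voom, a floor of 1 CPM in 3 libraries, no low-count filter, structural RNA left out and scaling without the shifted chromosomes. Scaled by library totals only, 31 rose and 6 fell; this scaling moved the median log2 fold change of all genes to -0.16 from -0.04 and that of the histone genes to 0.29 from 0.40. Leaving out each library in turn gave 31 to 37 higher and 4 lower. For the Hist2 cluster the 4 called genes became 2 without NGLY1-/- replicate 2 and 2 without wild-type replicate 1. In both cases the calls lost were those of Hist2h2aa2 and Hist2h4. With the replicate number as a block, 36 rose and 4 fell, with the same 40 calls. Same-numbered libraries deviated together with r of 0.0961, 0.0138 and 0.209 across genes, and differently numbered ones with r of -0.176 to 0.149. NGLY1-/- replicate 1 correlated best with wild-type replicate 2 (0.149). These values do not settle whether the numbers pair the samples. No pairing was used in the main fit because the labels do not say that a number marks a shared litter, batch or day. Low counts limit Hist1h2ba, Hist3h2ba and Hist1h2br, which had under 1 CPM on average, and shared sequence limits the 13 genes with no unique window. Among these 13, Hist3h2a was only 89.74% identical to its nearest histone copy of the same length, and its standard error was 0.103.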

Other observations

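The table also holds 2 histone pseudogene rows that the choice of protein-coding genes leaves out. Hist3h2bb-ps on chromosome 11 had 44, 53 and 33 counts in the NGLY1-/- libraries and 130, 135 and 114 in wild-type libraries, and fell (log2 fold change -1.49, SE 0.275, adjusted p = 0.000963 in edgeR's quasi-likelihood test). Hist1h2al on chromosome 13 had 33, 52 and 53 counts in the NGLY1-/- libraries and 78, 39 and 92 in wild-type libraries, with overlapping groups (adjusted p = 0.235). Outside the genes named by rule, 2 of the 32 processing genes, chosen after their values were seen, changed by more on the log2 scale than any of the histone genes that rose. Daxx, an H3.3 chaperone gene, was at 105 ± 10.7 CPM in NGLY1-/- and 33.3 ± 0.744 CPM in wild-type libraries (SD, n = 3 each; log2 fold change 1.66, adjusted p = 6.87e-07). Srrt, whose product joins the cap-binding complex to RNA processing, was at 78.7 ± 2.5 CPM in NGLY1-/- and 188 ± 30.5 CPM in wild-type libraries (log2 fold change -1.25, adjusted p = 1.31e-05).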
